A study of Mus musculus with 6 samples.

Results

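Cobl, Igsf11 and Nrk are 3 genes that were close to absent in the male-labelled libraries and well expressed in the female-labelled ones, in RNA sequencing of cultured CD31-positive cells from mouse liver. They were chosen on that contrast, so their difference between the groups is given as a description, without a test. The 3 genes were taken by symbol from the 13595 genes of the deposited table. CD31 is a surface protein of endothelial cells and was used to select the cells from livers of 4-week-old C57BL6/J mice. Each of the 6 libraries, 3 labelled male and 3 labelled female (the male-labelled and female-labelled libraries below), came from cells given 100 µM indoxyl sulfate, a tryptophan metabolite that activates the aryl hydrocarbon receptor (AHR), with 6 hours of hypoxia and nutrient deprivation. No library without indoxyl sulfate or hypoxia was analysed here, so neither effect can be described. Replicates are numbered 4, 5 and 6 in each group, and the labels do not say whether these are mice, isolations or wells, so every SD and p-value may measure technical spread only.

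The 3 genes encode proteins of unrelated families. Cobl (cordon-bleu) is an actin nucleator. Through WH2 domains it binds actin monomers and starts new filaments, and it is known for shaping dendrites in neurons and the microvilli of epithelial brush borders. Igsf11 (also called BT-IgSF or VSIG3) is a homophilic cell adhesion molecule of the CTX group of the immunoglobulin superfamily, known mainly from brain and testis, where it is tied to connexin 43 junctions. It has also been described as a ligand of the immune checkpoint receptor VISTA. Nrk (Nik-related kinase) is an X-linked serine/threonine kinase of the germinal centre kinase family, known from the placenta and from embryonic skeletal muscle, and it has been linked to JNK signalling and to the phosphorylation of cofilin, which severs actin filaments.

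The sequence just upstream of each start site is shown because the 3 genes were high and low in the same libraries and all cultures received an AHR ligand and hypoxia. The sequences are from RefSeq on build GRCm38.p6, while the submitters' processing notes name mm39. They read 5′ to 3′ on the gene's strand and end before the first annotated exon. Capitals mark a match, on either strand, to the AHR element core GCGTG, the hypoxia element core ACGTG, the TATA box letters TATAAA or the CArG box bound by serum response factor; the AHR and hypoxia cores can overlap. The Cobl sequence is chr11:12464961-12465210 on the minus strand, that of Igsf11 is chr16:38902095-38902315 on the plus strand and that of Nrk is chrX:138914180-138914429 on the plus strand.
Cobl: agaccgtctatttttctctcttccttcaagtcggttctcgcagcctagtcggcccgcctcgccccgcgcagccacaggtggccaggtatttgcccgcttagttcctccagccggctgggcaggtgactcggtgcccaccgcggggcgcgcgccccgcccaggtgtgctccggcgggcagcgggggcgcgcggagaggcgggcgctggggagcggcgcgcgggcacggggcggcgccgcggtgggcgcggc
Igsf11: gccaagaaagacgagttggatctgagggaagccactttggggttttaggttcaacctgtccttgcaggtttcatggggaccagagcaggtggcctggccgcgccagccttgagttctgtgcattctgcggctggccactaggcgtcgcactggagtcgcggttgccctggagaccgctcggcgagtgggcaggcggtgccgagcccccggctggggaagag
Nrk: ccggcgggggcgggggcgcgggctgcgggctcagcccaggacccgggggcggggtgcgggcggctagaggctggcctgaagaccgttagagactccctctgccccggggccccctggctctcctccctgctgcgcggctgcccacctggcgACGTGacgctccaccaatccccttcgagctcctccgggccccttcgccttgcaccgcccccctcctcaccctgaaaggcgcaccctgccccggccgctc

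Of the 4 motifs, the windows of 300 bases around these start sites held 1 match, an ACGTG that begins 99 bases before the start site of Nrk. No letters of the other 3 motifs were found in any of the 3 windows, nor in that of a second start site of Cobl. Among 12984 windows of the same length from genes of the table, ACGTG was found in 24.8%, GCGTG in 49.7%, TATAAA in 7.40% and the CArG box in 1.36%. All 3 start sites lie in GC-rich sequence. The window of Cobl held 42 CG dinucleotides, that of Nrk 31 and that of Igsf11 25, against a median of 20 over all windows. The second start site of Cobl had 0.

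Depth ran from 22303270 to 31189363 reads a library. A count of 0 allows up to 3 reads, which is a normalized count of 0.106 to 0.142 depending on the library. The check of the sex labels was mixed. Xist, the RNA of X inactivation, was at 286 ± 46.7 in the female-labelled libraries and 0.323 ± 0.176 in the male-labelled ones (SD, n = 3). Transcripts of the Y-linked genes Ddx3y, Uty, Eif2s3y and Kdm5d were nevertheless read in every female-labelled library, with group means from 19.1 to 52.1, against 26.9 to 58.1 in the male-labelled ones. Ddx3y and Uty, at 91.5% and 89.6% of the male-labelled mean, were not called, and Eif2s3y (51.3%) and Kdm5d (54.8%) were called lower. All 3 female-labelled libraries thus go against their label in this respect, no value can be given without them, and each direction below rests on the labels. Male 4 stood apart within its group (chi-square per gene of 43.6 and 45.4 against male 5 and male 6, which differed by 5.98), so values without it are given for the 3 genes. The contrast as a whole was broad: of 12568 genes tested with limma, 69.3% passed an adjusted p of 0.05, 34.6% as higher and 34.6% as lower in the female-labelled libraries, and the groups did not overlap for 74.1%, with the female-labelled libraries above for 37.1%.

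**Figure D1:**
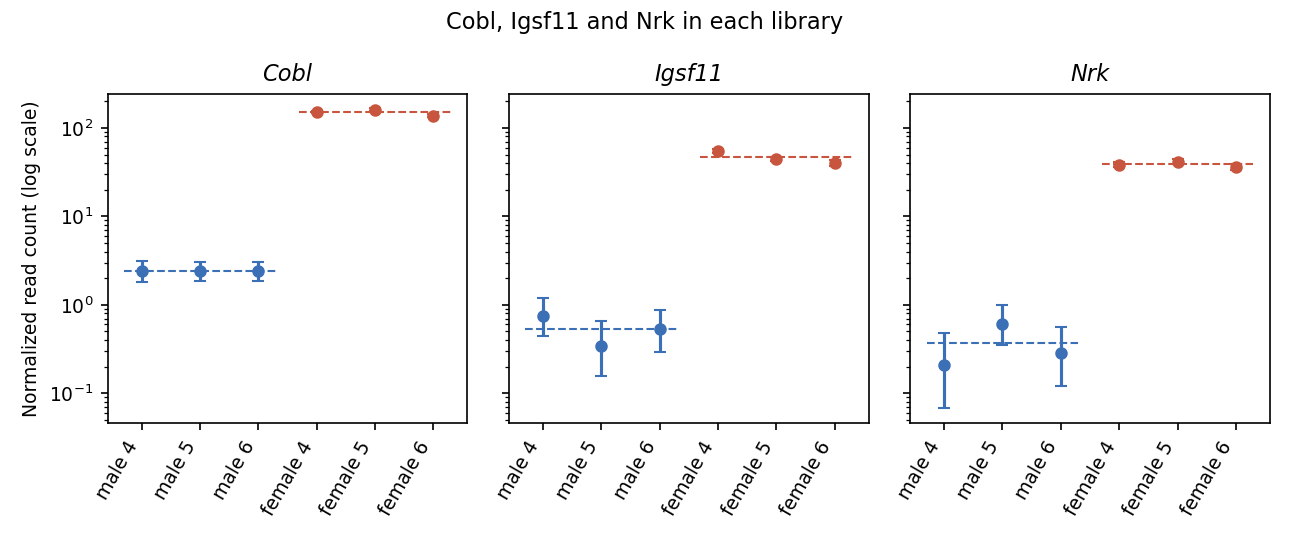
Normalized read count (log axis) of Cobl, Igsf11 and Nrk in each of the 6 libraries. Bars are exact Poisson 95% intervals of the reads and dashed lines are group means; each female-labelled library lies above each labelled male, and the intervals are wide in the male-labelled libraries, where Igsf11 and Nrk had 5 to 18 reads.

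Cobl was read at a normalized count of 2.41, 2.40 and 2.40 in male 4, 5 and 6, and at 151, 161 and 138 in female 4, 5 and 6. The female-labelled libraries were all far above the male-labelled ones, with female 5 highest and female 6 lowest. The group means of 150 ± 11.2 and 2.40 ± 0.00210 (SD, n = 3) differ by 62.4-fold, and by 62.4-fold also without male 4. Single libraries differed between the groups by 57.4-fold to 66.8-fold. Cobl was weakly but clearly detected in the male-labelled libraries, with 58, 63 and 68 reads. These 3 values lie closer together than their reads allow on average, since counting error alone amounts to 12.6% of the mean against an observed spread of 0.0875%. Their SD therefore understates the error of the level. Exact Poisson 95% intervals, which cover counting error only, run from 1.83 to 3.11 in male 4.

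Igsf11 was read at 0.746, 0.343 and 0.530 in male 4, 5 and 6, and at 54.3, 44.5 and 40.2 in female 4, 5 and 6. The groups did not overlap, and female 4 was the highest library. The means were 46.4 ± 7.23 and 0.540 ± 0.202 (SD, n = 3), a difference of 85.9-fold, or 106-fold without male 4. The denominator rests on 18, 9 and 15 reads, and the fold between single libraries ran from 53.9 to 158. In male 5, the library with the fewest reads of Igsf11, the exact Poisson 95% interval was 0.157 to 0.651.

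Nrk was read at 0.207, 0.610 and 0.283 in male 4, 5 and 6, and at 38.3, 41.5 and 36.3 in female 4, 5 and 6. The groups did not overlap, and as for Cobl female 5 was highest and female 6 lowest. The means were 38.7 ± 2.59 and 0.367 ± 0.214 (SD, n = 3), a difference of 106-fold, or 86.7-fold without male 4. Only 5, 16 and 8 reads stand behind the male-labelled values, and the fold between single libraries ran from 59.5 to 200.0. Male 4, with 5 reads, had an interval of 0.0673 to 0.484. The authors' deposited table gives fold changes of 62.2 for Cobl, 85.3 for Igsf11 and 104 for Nrk.

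The order of the folds depends on the scale. On linear means Nrk stood above Igsf11 and Igsf11 above Cobl, but the ranges over single libraries overlapped for the 3 genes. As differences of mean log2(normalized count + 1), the values were 5.47 for Cobl, 4.94 for Igsf11 and 4.87 for Nrk, which is the reverse order, because adding 1 weighs most on Igsf11 and Nrk with their levels below 1. Counted from the gene most above in the female-labelled libraries, they ranked 3, 4 and 5 on this scale among the 12568 tested genes, and 29, 23 and 19 by the linear ratio, where genes at 0 in every male-labelled library count as above them. Each of the 3 passed the filter on low values, a normalized count of at least 1 in at least 3 libraries. Igsf11 and Nrk passed it through the female-labelled libraries alone.

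Levels can be compared between genes only per length of transcript. Per kilobase of the longest coding transcript (5615 bases for Cobl, 3443 for Igsf11 and 8043 for Nrk), the normalized counts in the female-labelled libraries were 26.7 ± 1.997 for Cobl, 13.5 ± 2.10 for Igsf11 and 4.81 ± 0.322 for Nrk (SD, n = 3). In the male-labelled ones they were 0.428, 0.157 and 0.0456. The order from Cobl through Igsf11 to Nrk was the same in each of the 6 libraries, and within a group the ranges of neighbouring genes did not overlap. In male 5, with 9 reads of Igsf11 and 16 of Nrk, their values per kilobase were 0.0997 and 0.0759. That difference is within counting error. Among the tested genes, the level per library in the female-labelled libraries, not corrected for length, placed Cobl at percentile 88.2, Igsf11 at 64.9 and Nrk at 60.7. In the male-labelled ones the percentiles were 10.4, 1.54 and 1.13.

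Spread among the female-labelled libraries differed between the genes. The coefficient of variation was 15.6% for Igsf11, 7.48% for Cobl and 6.68% for Nrk. Counting error would give 3.08%, 1.72% and 3.38%, so all 3 varied by more than that. Genes within 1.5 times the same level had median coefficients of 4.77%, 3.63% and 5.11%. Igsf11, highest in female 4 and lowest in female 6, shared that order with the smooth muscle gene Myh11 (147, 121 and 103 in female 4, 5 and 6). Cobl and Nrk had another order, with female 5 highest. With 3 libraries these orders are a description only.

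The 3 genes share little sequence with other genes in the GENCODE M21 transcripts. The share of their 50-base stretches that also occurs in transcripts of another gene was 0% for Cobl, 0.912% for Igsf11 and 0.659% for Nrk. The strand setting of the count is not given in the sources used here. Annotated genes that overlap Cobl or Igsf11 on either strand share 0 exon bases with them, and no annotated gene overlaps Nrk.

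**Figure D2:**
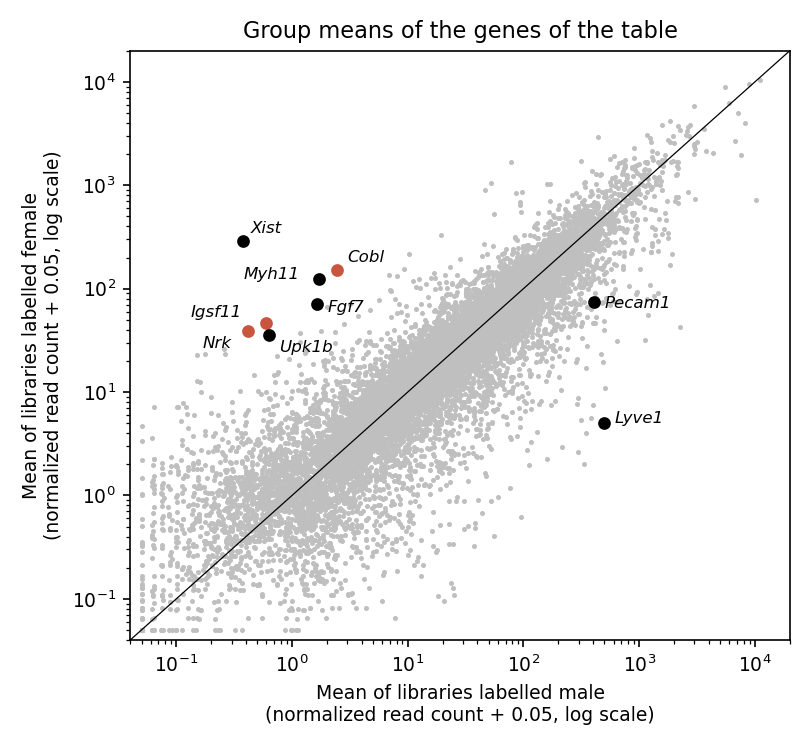
Mean normalized read count (plus 0.05, log axes) of each gene of the table in the 3 male-labelled libraries and the 3 labelled female. The line marks equal means; Cobl, Igsf11 and Nrk (red) lie in a sparse corner near Xist, Myh11, Fgf7 and Upk1b, opposite Lyve1 and Pecam1.

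Few genes shared this corner. A mean of at most 2.40 in the male-labelled libraries (the level of Cobl) with a mean of at least 38.7 in the female-labelled ones (the level of Nrk) was met by 8 genes. Besides the 3 these were Xist, Myh11, Fgf7, Glipr1 and Nrcam, a set of limits drawn after the values were seen. The mirror image, low in the female-labelled libraries and high in the male-labelled ones, was met by 14 genes. Nrk is on chromosome X, where 396 genes were tested, 161 of them called higher and 129 lower (34.6% each over all genes), with a median log2 difference of 0.08 against 0.01 over all tested genes. Only Xist exceeded Nrk in log2 difference among these X-linked genes, while by the linear ratio Dcaf12l1 also stood above Nrk, at 185-fold, and Arhgap36, at 0 in the 3 male-labelled libraries, has no ratio.

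The genes whose levels followed each member most closely were found by the distance of log2(normalized count + 1) over the 6 libraries, where the median distance of all tested genes was between 7.92 and 8.02. Igsf11 and Nrk lay close to each other, at a distance of 0.83, and Nrk was the nearest of all genes to Igsf11. The nearest to Nrk was Upk1b, a tetraspanin of urothelium and mesothelium, at 0.65, and Upk1b was second nearest to Igsf11 at 1.01. Upk1b was read at 0.498, 0.648 and 0.6003 in male 4, 5 and 6, and at 29.1, 35.5 and 41.1 in female 4, 5 and 6. Its order among the female-labelled libraries was the opposite of that of Igsf11. Hecw1, a ubiquitin ligase, was near both Igsf11 (1.03) and Nrk (1.17). Serpinb9e, a serpin, and Nrcam, a neuronal cell adhesion molecule of the immunoglobulin superfamily, completed the 5 nearest to Igsf11. Sema3d, a secreted guidance cue, and Sntg1, a syntrophin, completed those of Nrk.

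Cobl had other neighbours in level. The closest was Myh11, the heavy chain of smooth muscle myosin, at 0.87, with 124 ± 22.0 in the female-labelled libraries and 1.65 ± 0.206 in the male-labelled ones (SD, n = 3). Fgf7, a fibroblast growth factor that acts on epithelium, followed at 1.96, then Atp1b1, a sodium pump subunit (2.02), Glipr1 (2.07) and Phlda1 (2.13). Igsf11 stood 28th and Nrk 44th in nearness to Cobl, at 3.55 and 4.06. These distances were computed on the contrast by which the 3 genes were chosen and are descriptive.

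Genes next to the 3 on their chromosomes did not share their level, with 1 exception. Of the 3 nearest genes of the table on each side of Cobl on chromosome 11, Egfr (0.26) and Fignl1 (0.49) rose and Grb10 (-0.56), Sec61g (-0.38) and Vstm2a (-1.67) fell in log2 difference, and Ddc was below the filter. Grb10, an adaptor of growth factor receptors and the gene next to Cobl on 1 side, was read at 685 ± 40.6 against 1011 ± 108 (SD, n = 3). Beside Igsf11 on chromosome 16, the adjacent gene of the table on 1 side was Upk1b, the second nearest to Igsf11 in level. Upk1b had a log2 difference of 4.51 (SE 0.14), which follows from that nearness, so no p-value is given. On the other side Gap43 (0.74), Zbtb20 (0.92) and Tigit (0.78) rose, and beyond Upk1b B4galt4 rose (0.74) and Arhgap31 fell (-0.88). Near Nrk, Fam199x (1.31), Rnf128 (1.32) and Tbc1d8b (0.39) rose, while Tmsb15b1, Zcchc18 and Cldn2 were below the filter, with group means of 0.72 or less. Of the 18 neighbouring genes, 14 were tested, 10 rose and 4 fell, a called share that stands beside 69.3% over all genes. Among those that rose, Upk1b and Tigit passed the filter through the female-labelled libraries alone.

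**Figure D3:**
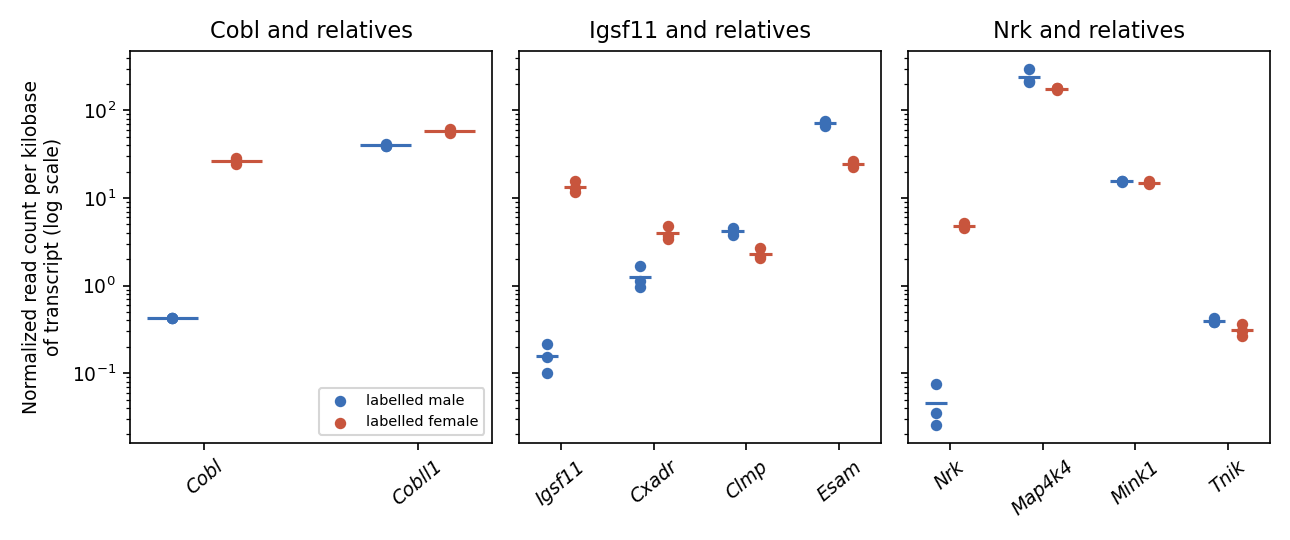
Normalized read count per kilobase of the longest coding transcript (log axis) for each member and its close relatives. Points are libraries and bars are group means. The relatives differ far less between the groups than the members, which were chosen for their difference.

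Cobl has a single close paralog, Cobll1. It was the more abundant of the pair in both groups, at 204 ± 6.69 in the male-labelled libraries and 294 ± 14.7 in the female-labelled ones (SD, n = 3), and rose by a log2 difference of 0.53 (SE 0.06, limma adjusted p 9.16e-05). Per kilobase, Cobl made up 1.05% ± 0.0326 of the pair in the male-labelled libraries and 31.4% ± 2.47 in the female-labelled ones (SD, n = 3). Cobll1 thus remained the main transcript of the pair.

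Other actin nucleators and elongation factors moved in both directions. Of 39 genes, 34 were tested, 15 rose and 10 fell, which is 73.5% called and near the 69.3% over all tested genes. Their median log2 difference was 0.13 (0.21 after quantile normalization) against 0.01 over all tested genes. The largest change was that of Lmod1 (3.51, limma adjusted p 7.89e-07), a leiomodin that, like Cobl, nucleates filaments from actin monomers and is typical of smooth muscle. It went from 1.30 ± 0.236 to 25.5 ± 6.10 (SD, n = 3). Fmn1, a formin, rose from 43.4 ± 2.16 to 206 ± 1.46 (log2 difference 2.22). The formin Fmnl2 (-1.85) and Actr3b (-1.75), a variant of an Arp2/3 subunit, fell. Of 9 subunits of the Arp2/3 complex, counted without Actr3b, 5 rose and 1 fell. Their log2 differences ran from -0.25 for Arpc3 (-0.16 and not called after quantile normalization) to 0.68 for Arpc5.

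Of 10 known partners of Cobl, 9 were tested and all 9 were called, 8 higher and 1 lower, with a median log2 difference of 0.73. Over all tested genes 69.3% were called and 34.6% were higher. Actb (1.19), which encodes the actin that Cobl assembles, rose. Prmt2 (1.06), the methyltransferase that modifies Cobl, and Pacsin3 (0.89), a membrane-binding syndapin, rose too. Dbnl, the actin-binding protein Abp1, fell (-0.30). Actin genes have processed pseudogenes and close copies, and how their reads were divided was not examined here.

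Structural genes of microvilli, in which Cobl is known to act, moved in both directions. Of 18 genes, 9 were tested and all were called, 6 higher and 3 lower (median 0.33), beside 69.3% called over all genes. The actin bundler Pls3 rose from 183 ± 13.6 to 489 ± 17.0 (log2 difference 1.42) and the membrane linker Msn from 895 ± 128 to 2306 ± 82.6 (1.37), while Eps8 (-1.08) and Espn (-0.95) fell. Vil1, which encodes the brush border protein villin, was at 0.980 ± 0.214 in the male-labelled libraries and 0.163 ± 0.0513 in the female-labelled ones, below the filter. Ezr, the membrane linker ezrin, was at 312 ± 23.1 against 257 ± 35.5 and was called higher (0.29, limma adjusted p 0.0386). Ezr was lowest in male 4, without which the log2 difference was 0.17, and its limma adjusted p was 0.118 without female 5 and 0.122 without female 6. A further 7 of the 18 genes, among them Myo1a, Cdhr2 and Cdhr5, were not found by symbol among the genes of the deposited table.

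Igsf11 differed in direction from most of its own group of adhesion molecules. Of 11 other CTX family genes, 6 were tested and all were called (69.3% over all genes), 5 lower and 1 higher, with a median log2 difference of -0.66. Esam, an endothelial junction molecule, fell from 134 ± 10.2 to 46.0 ± 3.28 (SD, n = 3; log2 difference -1.53, SE 0.08, limma adjusted p 1.04e-06). Jam2 (-0.87) and Clmp (-0.80), the latter a close relative of Igsf11, fell as well. Cxadr, the coxsackievirus and adenovirus receptor, was the gene called higher, from 7.22 ± 2.15 to 22.6 ± 4.02 (log2 difference 1.54, SE 0.19, limma adjusted p 0.000147). Per kilobase in the female-labelled libraries, Igsf11 at 13.5 lay above Cxadr at 3.94 and Clmp at 2.29 and below Esam at 24.7. In the male-labelled ones it was the lowest of these 4, at 0.157.

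Transcripts of proteins tied to Igsf11 moved in both directions. Of 10 genes, 8 were tested and all were called, 3 higher and 5 lower (median -0.81), where 69.3% of all tested genes were called. Gja1, which encodes connexin 43, fell from 745 ± 47.3 to 206 ± 4.85 (log2 difference -1.85, limma adjusted p 1.28e-07). Dlg4, the scaffold PSD-95 that binds the tail of Igsf11, fell from 80.5 ± 2.72 to 28.7 ± 1.02 (-1.46). The VISTA gene, listed under its older symbol 4632428N05Rik, fell from 16.7 ± 0.495 to 5.28 ± 0.288 (-1.50). The AMPA receptor subunit Gria4 rose from 4.76 ± 1.47 to 15.03 ± 2.17 (1.501).

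Nrk belongs with Map4k4, Tnik and Mink1 to one subfamily of germinal centre kinases, and none of the 3 relatives rose. Map4k4 was the most abundant, at 1023 ± 32.0 in the female-labelled libraries and 1410 ± 288 in the male-labelled ones (SD, n = 3), where male 4 stood at 1742 against 1267 and 1222. It fell by a log2 difference of 0.44 (-0.44, SE 0.13, limma adjusted p 0.0138), and without female 4 its limma adjusted p was 0.0538. Without male 4 the log2 difference was -0.28 (limma adjusted p 0.000280). Mink1 had a log2 difference of -0.06 (limma adjusted p 0.413) and Tnik, a weakly expressed gene, one of -0.28 (limma adjusted p 0.0766, and 0.0342 without female 4). Per kilobase, Nrk made up 2.44% ± 0.143 of the 4 kinases in the female-labelled libraries and 0.0186% ± 0.0124 in the male-labelled ones (SD, n = 3). Map4k4 took 89.8% and 93.7% in the same order.

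The wider family of germinal centre kinases was divided. Of 19 genes, 18 were tested, 8 rose and 5 fell (72.2% called, near the 69.3% over all genes), and the median log2 difference was -0.00, or 0.07 after quantile normalization. Stk4, a Hippo pathway kinase, rose from 31.9 ± 7.48 to 90.5 ± 1.16 (log2 difference 1.497), and Oxsr1 (1.43), which controls ion transporters, and Taok1 (1.21) rose with it. Map4k2 fell (-1.31).

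Genes of the JNK cascade, on which Nrk has been reported to act, moved in both directions. Of 19 genes, 17 were tested, 9 fell and 5 rose (82.4% called, against 69.3% over all genes, of which 34.6% were lower), with a median log2 difference of -0.44. Jun, the transcription factor that JNK phosphorylates, fell from 594 ± 116 to 75.7 ± 1.87 (log2 difference -2.94, limma adjusted p 4.14e-07). The upstream kinases Map3k1 (-2.14) and Map3k5 (-1.42) fell and Map3k11 (1.55) rose. For the kinases themselves, Mapk8 (JNK1) had a log2 difference of -0.17 (limma adjusted p 0.0730) and Mapk9 (JNK2) rose by 0.38.

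The cofilin cycle, which links the reported actions of Nrk to actin, had calls in both directions. Of 15 genes all were tested, 9 rose and 3 fell (80.0% called, against 69.3% over all genes, of which 34.6% were higher), and the median log2 difference was 0.60. Cfl1, the main cofilin, rose from 783 ± 41.4 to 1269.5 ± 16.5 (0.70), and its relative Dstn from 337 ± 9.88 to 954 ± 43.2 (1.496). Cap1, which recycles actin monomers with cofilin, rose (0.77). Limk1, a kinase that inactivates cofilin, fell from 193 ± 7.28 to 66.7 ± 1.95 (-1.52). Of the other kinases of the list, Limk2 (0.65) and Tesk1 (0.60) rose and Tesk2 was not called. Pdxp, a phosphatase that reactivates cofilin, fell from 20.2 ± 6.78 to 2.90 ± 0.240 (-2.39).

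**Figure D4:**
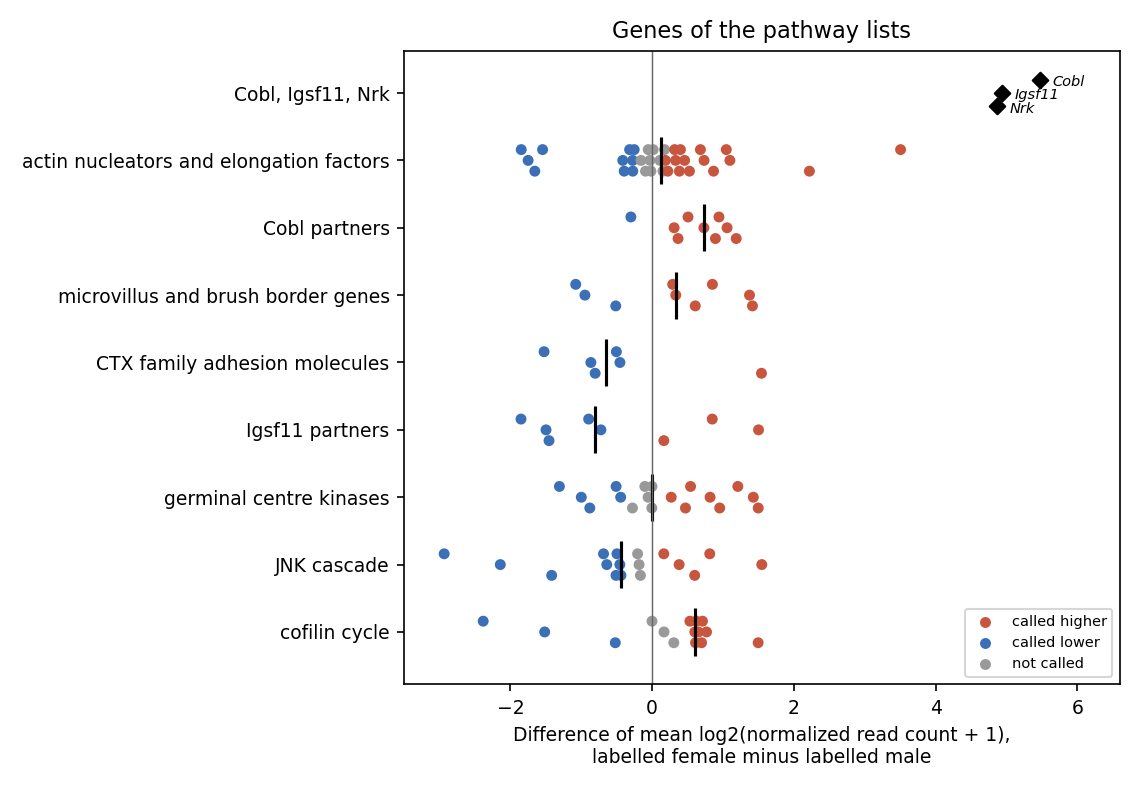
Difference of mean log2(normalized count + 1), labelled female minus labelled male, for each tested gene of 8 pathway lists; black bars are list medians and diamonds are Cobl, Igsf11 and Nrk. None of the list genes reaches the difference of the 3, which were chosen for it, and each list holds genes called in both directions.

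Markers of several cell types moved in the same contrast, and their part in the levels of Cobl, Igsf11 and Nrk was not tested. In bulk RNA, more cells of a type and more RNA per cell cannot be told apart. The counts of called markers below stand beside 69.3% called over all tested genes, 34.6% higher and 34.6% lower. All 7 mesothelial markers were listed and 6 were tested, of which 5 rose and 1 fell. Their median log2 difference was 2.82, or 4.99 with edgeR on the recovered reads. Upk1b, Wt1, Upk3b and Gpm6a passed the filter through the female-labelled libraries alone, so they could hardly be called lower. Msln (mesothelin) went from 19.4 ± 1.97 to 332 ± 29.6 (SD, n = 3; log2 difference 4.03), Upk1b from 0.582 ± 0.0769 to 35.3 ± 5.98 (4.51) and Wt1 from 0.101 ± 0.0163 to 12.8 ± 0.990 (3.64). Upk3b was at 0 in the 3 male-labelled libraries, which allows a normalized count of up to 0.106 to 0.124, and at 1.37, 3.80 and 4.65 in the female-labelled ones. Gpm6a rose (1.44), Lrrn4 was below the filter, and Krt19, a keratin also found in bile duct cells, fell (-1.99). The summed level of the list, mostly Krt19 in the male-labelled libraries and mostly Msln in the female-labelled ones, ran from 425 to 520 in the male-labelled libraries and from 501 to 507 in the female-labelled ones.

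Smooth muscle and mural markers were divided. All 8 were tested, 5 rose and 3 fell (69.3% called over all genes), and their sum ran from 385 to 491 in the male-labelled libraries and from 2716 to 3456 in the female-labelled ones. Acta2, smooth muscle actin, was at 1694 ± 187 against 78.6 ± 47.9 (log2 difference 4.57) and Tagln at 1057 ± 142 against 52.1 ± 27.5 (4.43), with male 4 the highest of its group for Acta2 (134 against 56.4 and 45.9). Rgs5 (-2.17) and Cspg4 (-1.05), markers of pericytes, fell, as did Smtn (-1.24). All 7 tested fibroblast markers fell (34.6% over all genes), among them Col1a1 (-0.68), Col1a2 (-1.47) and Col3a1 (-2.47), and their sum ran from 2761 to 3482 and from 955 to 969.

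The endothelial identity given by the labels was only partly borne out. Of 12 endothelial markers 11 were tested, 9 fell and 1 rose, against 34.6% lower and 34.6% higher over all genes, and the sum ran from 2230 to 2324 in the male-labelled libraries and from 1170 to 1233 in the female-labelled ones. Pecam1, which encodes CD31, was at 73.9 ± 0.540 against 407 ± 16.2 and Cdh5 at 387 ± 11.9 against 924 ± 5.58 (SD, n = 3), so both were present in each group. Of 8 markers of sinusoidal endothelium 3 were tested, 1 rose and 2 fell (69.3% called over all genes). Stab2, Clec4g and Fcgr2b had group means of 0.258 or less in both groups, and Mrc1 was at 1.03 and 0.856. Stab1 fell from 15.7 ± 2.41 to 1.95 ± 0.306 (log2 difference -2.49). Lyve1 fell as well, and was at 498 ± 24.8 in the male-labelled libraries and 4.98 ± 0.566 in the female-labelled ones. Gata4, a transcription factor of sinusoidal endothelium and of mesothelium, rose from 3.75 ± 0.0909 to 32.1 ± 0.858 (2.80).

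Markers of other cell types were at low levels, mixed in direction or mostly lower in the female-labelled libraries. Their counts of calls again stand beside 69.3% called over all genes, 34.6% in each direction. The leukocyte marker Ptprc was at 0 in the male-labelled libraries and 0.232 ± 0.0952 in the female-labelled ones, and the hepatocyte marker Alb was at 0.584 or less in either group. Macrophage markers summed to between 11.7 and 16.4 in all libraries, with 2 called higher, 1 lower, and Emr1 at 0 throughout. Of 6 cholangiocyte markers 5 were tested, 4 fell, among them Spp1 (-1.82), and 1 rose, and their sum ran from 1643 to 2492 and from 512 to 613. Of 3 tested stellate markers 1 rose and 2 fell, among them Hgf (-4.47), with sums of 262 to 289 and 186 to 193. For the brain, a known site of Igsf11, the glial and neuronal list was at low levels: Tubb3 was at 8.49 to 10.1 as group means and was not called, and the sums of the list were 11.2 to 13.1 and 8.76 to 10.9. For the placenta, the known site of Nrk, 2 of 8 trophoblast markers were listed and both fell: Ascl2 (-2.03) and Prl2c2 (-1.95), the latter at 1951 ± 191 against 7584 ± 1238 and with near-identical gene copies that make its value uncertain.

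**Figure D5:**
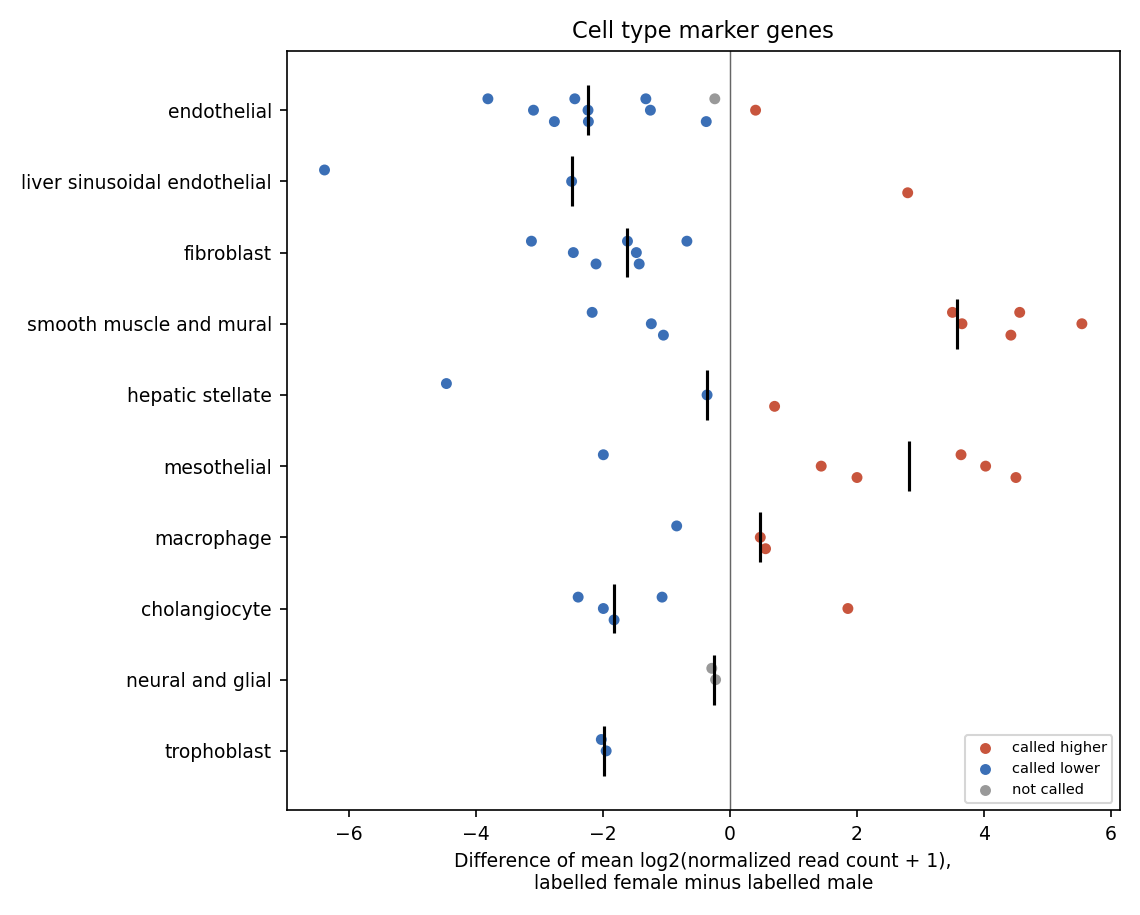
Difference of mean log2(normalized count + 1), labelled female minus labelled male, for the tested genes of 10 cell type marker lists; black bars are list medians. Mesothelial and smooth muscle genes reach the highest values, and endothelial, fibroblast and cholangiocyte genes are mostly called lower.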

How the data were processed

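Poly(A) RNA of 6 libraries was sequenced, per the labels' protocols. The submitters' processing notes name Bowtie2, RSEM, edgeR and build mm39, without their roles. Deposited signal values are normalized read counts: each value was a whole multiple (tolerance 0.001) of the smallest in its column for 100% of values, so the authors divided reads by 1 factor per library. A deposited score column holds the authors' signed fold change, and their deposited p-value columns were not used. The reads that this gives back are the depths in the report.

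Limma 3.58.1 (R 4.3.3, eBayes with trend) was applied to log2(value + 1) of genes that reached a value of 1 in 3 or more libraries, with Benjamini-Hochberg adjustment over all 12568 genes; log2 differences understate changes of weakly expressed genes. The fit was tested on simulated data, where it recovered nearly all changed genes and made false calls at a share somewhat above the threshold. Only a small set of well expressed genes was changed there, all by the same factor. The simulation therefore says nothing about weakly expressed genes or a contrast this broad. Cobl, Igsf11 and Nrk and the gene lists were chosen with earlier results of these data known. Text names up to 4 called genes of largest difference per pathway list, up to 2 most abundant markers per cell type, close relatives, the 5 genes nearest in level and 3 neighbours on each side; further names were chosen after the values were seen. Sets of genes carry no test of their own. Neighbours came from RefSeq (GRCm38.p6), where 12830 symbols matched (94.4%), and 7 list genes were found under older symbols. Transcript lengths are from GENCODE M21. Alternatives were RLE factors, quantile normalization, a pseudocount of 0.1, other filters, edgeR 4.0.16 and DESeq2 1.42.0 on recovered reads, a replicate block and leaving out each library. Protein sequences were not used here, and some named genes, among them 1 whose call changed in an alternative, are not reported here.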

Additional observations from a re-analysis of the deposited data

How the results depend on the processing

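The log2 differences of Cobl, Igsf11 and Nrk kept their direction under all alternatives run. Their size depended on how low values were treated. In the order Cobl, Igsf11 and Nrk, they were 5.90, 6.22 and 6.47 with a pseudocount of 0.1, 5.95, 6.42 and 6.69 with edgeR, and 5.96, 6.43 and 6.71 with DESeq2, since these settings add less to the male-labelled values. Quantile normalization gave 5.55 for Cobl. Leaving out 1 library at a time gave 5.42 to 5.52 for Cobl, 4.82 to 5.04 for Igsf11 and 4.79 to 4.99 for Nrk. Calls over all genes numbered 8704, from 8314 with the replicate block to 9085 with no filter, with edgeR at 8651 and DESeq2 at 8558, and from 7731 to 9496 without 1 library, the highest without male 4. Higher and lower calls numbered 4353 and 4351, but 4928 and 3978 after quantile normalization. Each of the 8 pathway lists stayed within 1.5 times its count of calls.

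No pairing by replicate number was seen: across genes, the 2 libraries sharing number 4, 5 or 6 deviated from their groups with correlations of -0.09, -0.03 and -0.17. With the replicate block the differences of the 3 genes were unchanged by construction (5.47, 4.94 and 4.87), and none of 102 other genes recomputed lost its call. Of 1428 values for these genes under the alternatives, 1421 kept direction and call. Ddx3y ran from -0.21 to 0.13 without 1 library, uncalled, and was above 0 without male 5, Map4k4 (-0.42) and Tnik (-0.38) changed calls without female 4, Ezr lost its call without female 5 or 6 and Arpc3 with quantile normalization. The cause was not tested. With edgeR, genes weakly expressed in a group differed by more than in the text: Ascl2 (-3.13), Map3k5 (-2.27), Tigit (2.12), Gpm6a (2.56) and Wt1 (6.89). With 5 to 18 reads in the male-labelled libraries, depth limits the folds of Igsf11 and Nrk.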
